A study of Mus musculus with 45 samples.

Results

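The step described here is the change between day 4 and day 8 in embryoid bodies (EBs) of the SCR line, the scrambled control line of a study of Strip2 silencing in murine embryonic stem cells (ESCs). The 6 arrays were the 3 titled as SCR at day 8 and the 3 titled as SCR at day 4, numbered 4, 5 and 6 within each day, out of 45 arrays in 15 groups. Every probe set of these arrays that carries a single gene symbol was used, and a gene was represented by its probe set with the highest mean over all arrays, which gave 18193 genes. In the SCR line the genotype label reads "scrambled control (SCR)", in the wild-type line (WT) "wild type" and in the third line "Strip2 silenced (KD)". Cells of all 3 lines are labelled as strain 129 and male, and every line has arrays, 3 a group, from undifferentiated ESCs and from EBs at days 4, 8, 12 and 16. EBs were grown by hanging drop and used whole. The labels give neither the sequence of the scrambled construct nor whether a line is a single clone, and they do not say whether separate cultures gave the 3 arrays of a group. The p-values therefore describe the spread between arrays within a group, pooled over the 15 groups of the fit, and that spread may be technical. The third line is called KD-labelled here, because Strip2 itself was at 3.22, 3.0 and 3.33 on its day 8 arrays, 3.48, 2.98 and 2.96 on the SCR day 8 arrays and 2.99, 2.93 and 3.08 on the WT day 8 arrays, at the dim end of the scale in all of them.

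ESCs left to aggregate pass through a state like the epiblast, then like the primitive streak, where the transcription factors Eomes and Mesp1 mark the first mesoderm. Mesoderm then yields heart muscle, smooth muscle, endothelium, primitive blood and connective tissue within the same body, beside endoderm that lines its surface and cavities. Beating heart muscle is laid down by factors such as Nkx2-5, Tbx5, Gata4, Mef2c and Myocd, which act on genes of the sarcomere, the repeating unit of actin, myosin, troponin and titin that contracts. Each value below is the authors' deposited log2 signal of a probe set, on which a difference of 1 is a 2-fold change, and each difference is SCR day 8 minus SCR day 4 unless another is named. Levels of different genes are not set against each other, since probe sets differ in how strongly they bind.

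The 6 arrays were close in scale, with medians of 5.05 to 5.11 and values from 1.87 to 14.26. Replicate arrays correlated across probe sets at 0.9889 to 0.9929 at day 8 and 0.9932 to 0.9947 at day 4, and no pair shared more than 2.05% identical values. The first day 8 chip of every line, which is array 4 in SCR, carries a cell type tag of ESCs although its title and source name give 8-day EBs. The mean of 36 pluripotency genes was 5.92 on SCR day 8 array 4, 5.77 on array 5 and 5.63 on array 6, against 10.08 to 10.61 in SCR ESCs, so array 4 was kept with day 8. Array 4 nevertheless stood apart from arrays 5 and 6 in several lists, most often in sarcomere genes. It was the lowest of the 3 day 8 arrays in 31 of 33 sarcomere genes (93.9%) and the highest in 22 of 34 visceral endoderm genes (64.7%), where over all genes it was the lowest in 38.9% and the highest in 26.8%. It was also the highest in 20 of 27 surface epithelium genes (74.1%), and the lowest in 22 of 28 glycolysis and hypoxia genes (78.6%), 10 of 13 anterior Hox genes (76.9%), 10 of 14 cartilage and bone genes (71.4%) and 19 of 28 endothelial genes (67.9%). For several lists counts are also given without it. Every array measured RNA of whole EBs, in which fewer cells of a type and less RNA per cell cannot be told apart.

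Between day 4 and day 8 a large share of the transcriptome moved, and the largest moves were gains of connective tissue, embryonic blood and muscle genes and losses of primitive streak genes. At a Benjamini-Hochberg adjusted p under 0.05 (limma, over all genes), 7483 of 18193 genes were called (41.1%), 3659 higher at day 8 (20.1%) and 3824 lower (21%). Changes of at least 2-fold were less even: 1390 called genes rose by that much (7.64%) and 634 fell (3.48%). The 3 day 8 arrays lay all above or all below the 3 day 4 arrays in 8715 genes (47.9%). The median difference over all genes was -0.07. With cyclic loess scaling between arrays, rises made up 60.9% of the called genes, against 48.9% with the values as deposited, so the balance of small rises and falls depends on the scaling. With that scaling 31 of 33 sarcomere genes were called higher and 28 of 47 streak genes lower, against 31 and 30 with the values as deposited.

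The largest rise of all was Col3a1, which encodes type III collagen of connective tissue: it was at 14.24, 14.06 and 13.95 on the day 8 arrays, against 3.56, 3.72 and 3.99 on the day 4 arrays. The 2 days were far apart and each day's arrays close together, and the difference of 10.33 (SE 0.28, adjusted p = 8e-26) equals 1280-fold on this scale. Hbb-y, an embryonic beta-type globin, followed with 13.70, 13.20 and 13.37 at day 8 and 3.95, 3.86 and 3.36 at day 4, a difference of 9.70 or 832-fold. Lum, which encodes the collagen-binding proteoglycan lumican, was at 12.67, 11.93 and 11.85 against 2.84, 2.68 and 2.98, a difference of 9.32. Hbb-y and Hbb-bh1 are similar in sequence, and cross-binding between their probe sets was not tested. Day 4 levels of these 3 genes sat near the 25th percentile of their arrays (3.50 to 3.62), where signal of the gene and background of the probe set cannot be separated, so the folds describe the scale and are not bounds. The other 17 genes among the 20 largest rises whose arrays did not overlap were Hbb-bh1, Myh6, Hba-x, Col1a2, Tnnt2, Myl2, Postn, Nepn, Dcn, Dlk1, Nr2f2, Plek, Col5a2, Ednrb, Shisa3, Angpt1 and Pf4, with differences between 5.83 and 9.08. They include 2 further embryonic globins, 2 collagens, 3 proteins of the heart sarcomere and, in Pf4, a platelet chemokine. Of the 20, 17 had a day 4 mean below the median of the arrays. Angpt1, the ligand of the endothelial receptor Tek, was at 9.60, 9.43 and 9.43 at day 8 and 3.56, 3.84 and 3.55 at day 4, and Nr2f2, a nuclear receptor of atrial muscle and veins, was at 10.92, 11.25 and 11.14 and 4.77, 4.98 and 5.04.

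Sarcomere genes of the heart rose almost without exception: 31 of 33 measured members were called higher, 28 of them by at least 2-fold, and none was called lower. The median difference over the list was 3.38 log2 units, beside -0.07 over all genes, with a range of 0.09 to 8.08. Myh6, the alpha heavy chain of cardiac myosin, was at 10.03, 12.09 and 11.85 on the day 8 arrays, against 3.29, 3.23 and 3.21 on the day 4 arrays. All 3 day 8 arrays lay far above day 4, with array 4 the lowest of them, and the difference was 8.08 (SE 0.56, adjusted p = 2.7e-14). Tnnt2, the cardiac troponin that ties the troponin complex to tropomyosin, was at 10.90, 12.32 and 12.27 at day 8, against 5.37, 4.21 and 4.28 at day 4. Myl2, the regulatory light chain of ventricular myosin, was at 11.32, 12.64 and 12.40 at day 8, against 4.92, 5.30 and 4.94 at day 4. In both genes the arrays of the 2 days were again apart, with differences of 7.21 (SE 0.36) and 7.07 (SE 0.49).

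Thick and thin filament and the proteins that anchor them moved together. Ttn, which encodes the giant spring protein titin, was at 6.61, 9.62 and 7.96 at day 8, against 2.97, 3.05 and 2.83 at day 4, and Actc1, cardiac alpha-actin, was at 11.09, 12.86 and 12.75 against 7.35, 7.11 and 6.98. The 2 days were apart in both genes, by 5.11 in Ttn (adjusted p = 1.7e-10) and 5.09 in Actc1 (adjusted p = 1.1e-10). Among the other chains of myosin, Myl4, an atrial and fetal light chain, rose by 4.91, the beta heavy chain Myh7 by 4.89, the atrial light chain Myl7 by 4.30 and the ventricular light chain Myl3 by 2.96. Of the troponins, Tnni3 (cardiac troponin I) rose by 3.94, Tnni1 (the slow skeletal form that fetal heart uses) by 3.49 and Tnnc1 (troponin C of heart and slow muscle) by 2.50. Z-disc and M-band genes followed, with Ldb3 up by 4.62, Nebl by 4.27, Myom1 by 3.90, Actn2 by 2.55 and Csrp3 by 2.49. Chaperones and turnover enzymes of the sarcomere rose too, among them Cryab (alpha-B crystallin) by 4.87, Unc45b (a myosin chaperone) by 2.04, Smyd1 by 2.58 and the ubiquitin ligase Trim63 by 3.44. Tcap, the titin cap, was at 5.07, 6.22 and 6.15 at day 8 and 4.98, 4.90 and 4.73 at day 4, and Des, which encodes the muscle intermediate filament desmin, at 6.44, 7.51 and 7.26 and 6.08, 6.05 and 5.91. Their rises, 0.94 and 1.06, were small beside those of the filaments. The 2 members that did not pass the test were Myoz2 (0.17, adjusted p = 0.59) and Myh7b (0.09, adjusted p = 0.62). Tpm1, an alpha-tropomyosin made in many tissues, was bright at both days, at 11.74, 12.16 and 12.31 and 11.80, 11.47 and 11.45, and called higher with overlapping arrays (0.50, adjusted p = 0.027). That call was lost without day 8 array 5 (0.45) or 6 (0.38) or day 4 array 5 (0.45) or 6 (0.44), and another Tpm1 probe set was called lower (-1.30). Where a gene has several probe sets the brightest often moved most: as a median over its probe sets Myh6 differed by 5.31, Ttn by 2.52, Myl4 by 2.59, Ldb3 by 2.73, Nebl by 2.34, Cryab by 3.16, Smyd1 by 0.62 and Des by 0.45, all still called.

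The spread between the 3 day 8 arrays was wide for these genes. The SD of the list mean was 0.75 at SCR day 8, the largest of the 15 groups, and 0.02 at WT day 4. SEs and p-values pool the spread over all groups, so they can be too small here. In a fit of the 6 SCR arrays alone 30 members were called higher. The mean over the 33 sarcomere genes was 7.57, 8.96 and 8.77 on day 8 arrays 4, 5 and 6, against 5.23, 5.15 and 5.01 on the day 4 arrays. Without array 4 of day 8, 31 members were called higher, and without array 5 or array 6 the counts were 28 and 29. The visceral endoderm genes ran the other way among the same 3 arrays, with a list mean of 6.41 on array 4, 5.90 on array 5 and 5.72 on array 6, against 4.97 to 5.16 at day 4, and their part in the spread was not tested. Array 4 nonetheless lay above all 3 day 4 arrays in the sarcomere mean.

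**Figure D1:**
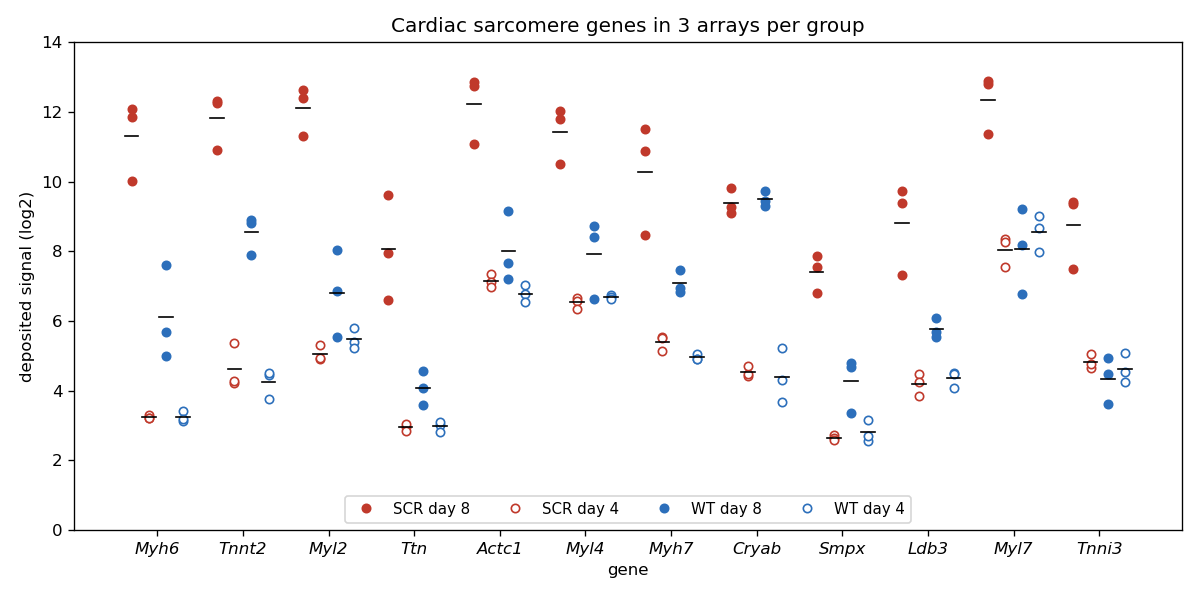
Deposited log2 signal (y axis) of 12 sarcomere genes on each array of SCR at day 8 and day 4 and of WT at day 8 and day 4; each point is an array and each bar a group mean of 3 arrays. SCR day 8 arrays lie above SCR day 4 arrays in every gene drawn, by 3.94 (Tnni3) to 8.08 (Myh6) in the mean, while WT day 8 reaches SCR day 8 levels in Cryab.

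RefSeq promoter sequences were searched for an element known from muscle genes. The list was drawn up as muscle genes, so its share describes the list and not the step. The CArG box is the 10-base element bound by serum response factor, of which myocardin is a cofactor. This box was searched on both strands in the 250 bases before each gene's start site. It was present in 6 of the 29 sarcomere genes with a promoter in the table (20.7%), against 207 of 14449 measured genes (1.43%). The 60-base windows around it in these 6 genes are printed 5′ to 3′ on the strand of the gene with the box in capitals (RefSeq, GRCm38.p6), to show the element and its flanks in genes that rose.
Actc1 (chr2:114052888-114052947, minus strand): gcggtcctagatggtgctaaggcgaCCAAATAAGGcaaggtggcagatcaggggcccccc
Ldb3 (chr14:34588682-34588741, minus strand): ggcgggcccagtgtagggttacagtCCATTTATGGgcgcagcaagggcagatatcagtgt
Myl3 (chr9:110763568-110763627, plus strand): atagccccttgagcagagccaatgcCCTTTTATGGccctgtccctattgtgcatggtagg
Myl7 (chr11:5898809-5898868, minus strand): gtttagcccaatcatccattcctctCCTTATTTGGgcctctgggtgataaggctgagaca
Myom1 (chr17:71019433-71019492, plus strand): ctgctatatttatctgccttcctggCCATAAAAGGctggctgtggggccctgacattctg
Nebl (chr2:17462984-17463043, minus strand): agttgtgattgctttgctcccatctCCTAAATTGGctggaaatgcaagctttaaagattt
All 6 genes rose, by 2.96 (Myl3) to 5.09 (Actc1), and so did 25 other members, whose windows hold no such match or were not in the table, so the box does not sort the members by their change. Among the 14 smooth muscle genes with a promoter the box was found in 4 (28.6%), namely Cnn2, Ldb3, Myl9 and Filip1l. Among the 18 collagen genes and the 22 mesenchyme genes with a promoter it was found in 0. Among the 16 heart transcription factors with a promoter it was found in 3 (18.8%), in Hopx, which rose, and in Mesp1 and Mesp2, which fell. Myl9, the light chain of smooth muscle myosin, carries it within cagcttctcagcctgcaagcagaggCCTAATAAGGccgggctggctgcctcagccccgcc (chr2:156775278-156775337, plus strand). Other muscle-related words were less set apart in the 29 sarcomere promoters: the MEF2 box was in 3 (10.3%, against 2.33% of all), GATAAG in 4 (13.8%, against 6.51%), the E-box CAGCTG in 7 (24.1%, against 14.9%) and CATTCC, the core bound by TEAD factors, in 10 (34.5%, against 13.4%). The boxes were matched by letters only, and a match is not evidence of binding.

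More transcription factors of the heart rose than fell. Of 26 measured factors 14 rose (53.8%, beside 20.1% of all genes), all by at least 2-fold. Another 6 fell (23.1%, near the 21% of all genes), and the median difference was 1.12. Mef2c, a MADS-box activator of muscle genes, was at 8.07, 8.99 and 9.01 at day 8, against 5.12, 5.66 and 5.42 at day 4, a difference of 3.29 (adjusted p = 2.4e-13). Myocd, which encodes myocardin, the coactivator of serum response factor in heart and smooth muscle, was at 6.56, 8.10 and 8.35 against 5.52, 5.28 and 5.78. Tbx5, a T-box factor of the first heart field, was at 6.61, 7.25 and 7.17 against 5.68, 5.51 and 5.54. In these 3 genes the days did not overlap, and array 4 was the lowest day 8 array in 19 of the 26 factors. Gata5 rose by 2.45, Shox2, a factor of the sinus node region, by 2.44, Hopx, an atypical homeodomain protein, by 2.30, Gata6 by 2.01, Tbx18 by 1.72 and Hand2 by 1.48. Nkx2-5, the classic marker of cardiac progenitors, was at 5.21, 7.22 and 6.54 at day 8, against 5.35, 5.23 and 5.18 at day 4. Day 8 array 4 lay inside the day 4 range and arrays 5 and 6 above it, and the difference of 1.07 was called (adjusted p = 3e-04), as it was without array 4 (1.63) and without array 5 (0.62), but not in a fit of the 6 SCR arrays alone (adjusted p = 0.064). Gata4 and Tbx20 were present at both days and did not pass the test, with 6.63, 7.16 and 6.49 against 6.86, 6.53 and 6.38 in Gata4 and 9.55, 9.36 and 9.83 against 9.38, 9.60 and 9.84 in Tbx20. Isl1, which marks the second heart field, was likewise uncalled (0.18, adjusted p = 0.64). The falls were led by Tbx3 (-3.69) and Mesp1 (-3.65), with smaller ones in Hey2 (-0.90), Mesp2 (-0.89), Tbx2 (-0.62) and Hand1 (-0.45). Of these, Hey2 was not called without day 8 array 5 (-0.55) or day 4 array 6 (-0.80), and Tbx2 and Hand1 were not called without day 8 array 4 (-0.50 and -0.30) or day 4 array 4 (-0.50 and -0.36). Hand1 was also not called without day 8 array 6 (-0.34), with cyclic loess scaling (-0.40) or in a fit of the 6 SCR arrays alone (adjusted p = 0.13). As medians over probe sets the rises of Myocd, Tbx5, Shox2 and Hand2 were 1.19, 0.81, 1.48 and 0.93, all still called. Mesp1, the earliest factor of cardiac mesoderm, was at 4.69, 4.77 and 4.89 at day 8, against 8.48, 8.65 and 8.18 at day 4, with no overlap.

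Of 28 genes of calcium cycling, ion channels and natriuretic peptides 15 were called higher, also without day 8 array 4, and Gja1 alone was called lower. Slc8a1, the sodium-calcium exchanger of the heart cell membrane, was at 6.52, 7.91 and 7.84 at day 8, against 3.87, 3.81 and 3.78 at day 4, and Ryr2, the calcium release channel of the sarcoplasmic reticulum, at 6.20, 8.28 and 7.74 against 4.15, 3.90 and 4.07. Both rose by more than 3 log2 units, 3.60 and 3.37. Pln, which encodes phospholamban, the brake on the calcium pump, rose by 2.89 with day 8 arrays at 6.74, 7.46 and 6.98, against 4.50, 3.99 and 4.02 at day 4. The pump itself, Atp2a2, was bright at both days (11.06, 11.43 and 11.24 against 11.06, 11.09 and 11.0) and did not pass the test, although it was called higher with cyclic loess scaling (0.36) and as a median over its probe sets (1.13). The T-type channel Cacna1h rose by 2.57, the L-type channel Cacna1c by 1.14, the potassium channel Kcnh2 by 2.03, Popdc2 by 2.41, the kinase Camk2d by 2.18 and the triad protein Trdn by 1.24. Of the natriuretic peptides, Nppb was at 5.37, 5.15 and 6.93 at day 8 and 4.33, 4.41 and 4.85 at day 4 and rose by 1.29, a call lost without day 8 array 6 (0.73), while Nppa stayed near the floor of its arrays (3.48, 3.50 and 3.88 against 3.34, 3.34 and 3.11, adjusted p = 0.38). Gja1, the main gap junction protein of working heart muscle and of many epithelia, was lower at day 8, at 11.84, 11.50 and 11.44 against 12.52, 12.54 and 12.66. Medians over probe sets gave smaller called rises in Slc8a1 (1.89), Ryr2 (1.65), Cacna1h (1.33) and Camk2d (1.36) and a larger one in Trdn (2.39). Gja5, the atrial and conduction form, was dim at both days, at 2.83, 3.08 and 2.95 and 3.09, 2.90 and 2.97.

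Of 15 genes of muscle energy supply 9 rose and Acadm, an enzyme of fatty acid oxidation, fell slightly (-0.25), a call lost with cyclic loess scaling (-0.09), in a fit of the 6 SCR arrays alone (adjusted p = 0.13), and without day 8 array 4 (-0.20), day 4 array 4 (-0.25) or day 4 array 5 (-0.19). Ppargc1a, the coactivator that drives mitochondrial biogenesis, was at 5.45, 7.16 and 6.73 at day 8, against 2.97, 2.95 and 2.96 at day 4, a difference of 3.49. Pgam2, the muscle form of phosphoglycerate mutase, was at 7.53, 10.24 and 9.79 against 5.79, 6.0 and 5.58, and Lpl, the lipase that frees fatty acids from lipoproteins, rose by 3.42. Cox6a2, a heart and skeletal muscle subunit of cytochrome oxidase, rose by 1.95 and Mb, myoglobin, by 1.54 (0.67 as a median over its probe sets). The widely expressed subunits of the respiratory chain moved little, with 7 of 55 called higher, 5 called lower and a median difference of 0.05, although with cyclic loess scaling 24 were called higher and 1 lower. Without day 8 array 4 the counts were 11 and 1, and without day 4 array 6 they were 2 and 5, so their balance is not settled by these arrays. Ckm and Ckmt2, creatine kinases of mature muscle, were dim and did not pass the test (0.0 and 0.02). Array 4 was the lowest day 8 array in 13 of the 15 energy genes (86.7%) and in 21 of the 28 calcium genes (75%).

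Smooth muscle genes rose beside those of the heart, 13 of 18 called higher and none lower. Acta2, smooth muscle alpha-actin, which early heart muscle also makes, was at 13.21, 13.15 and 13.25 at day 8, against 7.80, 7.36 and 7.22 at day 4. Here array 4 was not apart from its replicates, and the difference was 5.74 (SE 0.32, adjusted p = 4e-17). Filip1l rose by 4.04, Synpo2 by 3.56, the visceral gamma-actin Actg2 by 3.17, Tagln (transgelin) by 1.78 and Myl9 by 1.73. As medians over probe sets Acta2 rose by 2.16 and Synpo2 by 1.56. Markers of mature smooth muscle were not called: Myh11, its myosin heavy chain, was dim at 3.91, 3.96 and 3.91 and 4.03, 4.14 and 3.74, and Cnn1, calponin, was at 5.10, 6.26 and 6.62 and 6.33, 6.46 and 6.16. Skeletal muscle genes did not rise as a group, with 20% called higher and 10% lower, beside 20.1% and 21% of all genes. The myogenic factors Myf5, Myod1, Myog and Myf6 were dim, with day 8 means of 2.40, 3.68, 3.52 and 3.01, and none passed the test. Of 20 skeletal muscle markers 4 rose, namely Tnnt1, a slow troponin T (2.44), Tnni2 (1.34), Myl1 (1.11) and the skeletal alpha-actin Acta1 (0.93), and Tnnt3 and Pax3 fell; for Tnni2 another probe set was called lower and the median over its probe sets was not called (0.18), and the call of Acta1 was lost without day 8 array 6 (0.74). Markers of the epicardium, the outer sheet of the heart and a mesothelium, rose in 9 of 13 genes. Bnc2 was at 9.98, 9.57 and 9.33 against 3.71, 3.97 and 4.32, Tcf21 at 8.52, 8.65 and 8.94 against 3.72, 4.16 and 3.72, and Wt1 at 7.13, 7.15 and 7.24 against 4.41, 4.27 and 3.53, all with separate days, although medians over probe sets were smaller for Bnc2 (1.88) and Tcf21 (2.70). Upk3b rose by 3.82 and Bnc1 by 3.44, while Lrrn4 fell by 3.48; several of these genes are also made by other mesothelia and by the fetal kidney and gonad.

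Connective tissue genes showed some of the largest gains. Of 24 collagen genes 19 rose, 15 by at least 2-fold, none fell, and the median difference was 1.46. Col1a2, a chain of type I collagen, was at 12.85, 12.70 and 12.03 at day 8, against 4.94, 4.95 and 5.17 at day 4, and its partner Col1a1 at 10.89, 10.56 and 9.64 against 5.97, 5.56 and 6.03. Col5a2 rose by 6.12, Col6a3 by 4.93, Col6a1 by 3.47 and Col5a1 by 3.0. Basement membrane collagen IV was already bright at day 4 and rose less, Col4a1 by 1.11 and Col4a2 by 1.31. Of 38 mesenchyme and matrix genes 27 rose and 3 fell, with a median of 1.04. Postn, periostin of fibroblasts and valves, was at 13.80, 13.40 and 13.32 at day 8, against 6.24, 6.29 and 6.86 at day 4. Dcn, the proteoglycan decorin, was at 11.71, 11.14 and 10.52 against 4.93, 4.81 and 4.73, and Tgfbi, a matrix protein induced by TGF-beta, at 11.25, 10.87 and 10.83 against 5.58, 5.68 and 5.79. Tnc (tenascin C) rose by 3.94 and the crosslinking enzyme Loxl1 by 3.80. General mesenchymal genes that were high at day 4 moved little, with Vim up by 0.98, Fn1 by 0.61 and Pdgfra by 0.93, and Twist1 and Cdh11 uncalled (0.19 and 0.37), although Cdh11 was called in a fit of the 6 SCR arrays alone (adjusted p = 0.038). The 3 called lower were Efemp1 (-1.28), Thy1 (-0.74) and Snai1 (-0.71), the zinc finger factor of epithelial-mesenchymal transition at the streak. As medians over probe sets Dcn rose by 3.58 and Loxl1 by 2.16, and Pdgfra was not called (0.37). The call of Fn1 was lost without day 8 array 4 (0.51) and that of Thy1 without day 8 array 6 (-0.51) or day 4 array 5 (-0.64) or 6 (-0.77).

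Most endothelial genes rose. Of 28 markers 19 rose and 3 fell, with a median of 0.83. Emcn, endomucin of veins and capillaries, was at 7.22, 7.02 and 7.83 at day 8, against 2.82, 3.17 and 2.90 at day 4, and Cdh5, the cadherin of endothelial junctions, at 7.04, 7.26 and 8.03 against 3.48, 3.98 and 3.48. The angiopoietin receptor Tek rose by 4.32, Lyve1 by 3.14, Vwf by 2.96, the tight junction gene Cldn5 by 2.73 and Pecam1 by 1.22. Etv2, the short-lived factor that commits mesoderm to blood and endothelium, moved the other way, with 4.90, 5.32 and 5.62 at day 8, against 9.13, 9.33 and 8.51 at day 4. The receptors Kdr and Flt1 were present at both days and did not pass the test (-0.14 and -0.04). Primitive red cell genes rose in 14 of 21 cases with none lower. Hbb-bh1 was at 13.64, 13.47 and 13.65 at day 8, against 4.53, 4.95 and 4.03 at day 4, and Hba-x, the embryonic alpha-type globin zeta, at 12.27, 12.59 and 12.16 against 4.67, 4.67 and 4.56. In all 3 embryonic globins the arrays of a day lay close together beside the distance between the days, array 4 included. The adult globin Hba-a1 remained dim at 3.11, 3.33 and 3.16 and 3.48, 3.33 and 2.92. The membrane anion exchanger Slc4a1 rose by 4.97, the heme enzyme Alas2 by 3.75, Hemgn by 3.69 and the erythroid factor Klf1 by 2.72, while Tal1 and Lmo2, which act earlier, did not pass (0.38 and -0.02), although Tal1 did without day 4 array 5 (0.64). White cell and platelet markers rose in 15 of 21 cases, with Pf4 at 10.27, 10.61 and 9.94 against 4.50, 4.50 and 4.32, Cd34 up by 3.62, the macrophage receptors Csf1r and Mrc1 by 2.99 and 2.83, and Ptprc, the pan-leukocyte antigen CD45, by 2.33. As medians over probe sets Cdh5, Csf1r and Ptprc rose by 1.99, 1.05 and 1.07. Spi1 and Mpo, of the granulocyte and monocyte lineage, were dim and uncalled.

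Endoderm moved in a divided way. Among 34 genes of visceral endoderm and yolk sac, the absorptive layer that feeds the early embryo, 14 rose and none fell (12 and 1 without day 8 array 4), with a median of 0.41. Rbp4, the retinol carrier, was at 11.08, 10.06 and 9.78 at day 8, against 5.40, 5.58 and 5.60 at day 4, and Ttr, transthyretin, at 11.67, 10.14 and 9.91 against 6.51, 7.85 and 6.33. Both genes were highest on array 4 and lowest on array 6 of day 8. Apob rose by 3.72 (2.09 as a median over its probe sets), Afp (alpha-fetoprotein) by 3.34 and Dab2, an endocytic adaptor, by 2.71, whereas the liver genes Alb, Ahsg and Fga remained dim with day 8 means of 3.95, 4.06 and 2.56. Parietal endoderm genes, which make the basement membrane beneath the trophoblast and are shared with mesenchyme, rose in 10 of 13 cases. Nid1 was at 11.22, 10.82 and 10.99 against 7.96, 8.01 and 8.40, and Lamc1, Lama1 and Serpinh1 rose by 1.5, 1.36 and 2.03. In a list of endoderm transcription factors, which also holds the secreted protein Cer1, 3 of 18 members rose (16.7%, Gata6, Onecut1 and Onecut2). Of the same list 6 fell (33.3%), among them Cer1 (-3.03), Cdx2 (-1.06) and Sox17 (-1.0). Over all genes 20.1% rose and 21% fell. Foxa2 was at 8.75, 8.67 and 8.22 at day 8 and 8.58, 8.94 and 9.40 at day 4 and did not pass the test (-0.43, adjusted p = 0.064), but was called lower without day 8 array 4 (-0.53), without day 4 array 4 (-0.62) and with only genes above the median level (adjusted p = 0.046).

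Most primitive streak and early mesoderm genes fell. Of 47 members 30 fell (63.8%, beside 21% of all genes), 22 of them by at least 2-fold. Another 3 rose, and the median was -0.89. Eomes, the T-box factor of streak and definitive endoderm, was at 5.65, 5.20 and 4.87 at day 8, against 11.07, 10.64 and 10.75 at day 4, which was the largest fall of all genes with separate arrays (-5.58, SE 0.29, adjusted p = 1.1e-17). Mixl1, a homeobox gene of the streak, was at 4.37, 4.26 and 4.73 against 10.07, 9.57 and 9.14, and Lhx1, of the node and anterior mesendoderm, at 5.23, 4.41 and 4.98 against 9.62, 9.42 and 9.68. The day 8 means of Mixl1 and Lhx1 lay below the array median. Evx1 fell by 3.34, Dll3 by 3.26, Cyp26a1, which degrades retinoic acid, by 3.79, Gsc by 2.09 and Wnt3 by 2.43. The 3 that rose, Foxc1 (1.42), Foxc2 (1.25) and Pdgfra (0.93), are genes of later mesenchyme as well, and Foxc2 was not called without day 4 array 4 (0.80). Others among the 20 largest falls with separate arrays were Trh, Tdgf1, Ms4a4d, Stmn2, Msx2, Phlda2, Vrtn, Cfc1, Hoxb1, Fgf5, Pifo, Nanog, Cxcr4, Eras, Fgf3 and Etv2, with differences between -5.53 and -3.71. Cxcr4, the chemokine receptor of migrating mesendoderm, was at 5.59, 5.69 and 5.88 at day 8, against 9.58, 9.57 and 9.75 at day 4. Of the 20 falls, 13 had a day 8 mean below the median of the arrays.

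Epiblast and pluripotency genes that were still present at day 4 also went down. Of 19 primed epiblast genes 13 fell and 2 rose, with a median of -1.97. Fgf5 was at 4.09, 3.02 and 3.67 at day 8, against 7.84, 7.82 and 7.08 at day 4, Otx2 at 5.45, 5.59 and 6.04 against 8.59, 9.19 and 9.15, and the de novo methyltransferase Dnmt3b at 8.49, 8.14 and 8.31 against 11.11, 11.27 and 11.20. Among 36 pluripotency genes 15 fell and 6 rose. Pou5f1 (Oct4) was at 5.23, 4.60 and 4.11 at day 8, against 7.57, 7.98 and 7.77 at day 4, and Nanog at 3.71, 3.49 and 3.62 against 7.92, 7.55 and 7.13. The day 8 means of both lay below the array median. Lin28a, an RNA-binding protein that blocks let-7 processing, fell by 2.80 and Sall4 by 2.0. The 6 that rose were Nr5a2 (3.23), Klf2 (1.98), Tfcp2l1 (1.92), Sox2 (1.04), Klf5 (0.98) and Jarid2 (0.52). Probe sets disagreed for Tfcp2l1, Klf5 and Jarid2, whose medians over probe sets were -0.11, 0.19 and 0.36, none of them called, and Sox2 was not called without day 8 array 6 (0.89) or day 4 array 5 (0.79).

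Signalling pathways moved in both directions, with falls among ligands and targets that are active in the streak. Members called higher were 16.7% (Nodal), 28.8% (Wnt), 20% (BMP), 16.7% (FGF) and 26.1% (Notch), beside 20.1% of all genes. Members called lower were 38.9%, 42.3%, 46.7%, 40% and 34.8% in the same order, beside 21% of all genes. In the Nodal pathway 7 of 18 fell and 3 rose: the ligand Nodal was at 6.32, 5.35 and 5.39 at day 8, against 7.94, 7.63 and 7.41 at day 4, its co-receptors Tdgf1 and Cfc1 fell by 5.34 and 4.32, and the nuclear partner Foxh1 by 3.26, while Smad3 rose by 0.97 and the receptor Acvr2a by 0.46, neither of which was called as a median over probe sets (0.26 and 0.20). Of 52 Wnt genes 15 rose and 22 fell. The ligand Wnt3 and the response genes Lef1 (-2.62), Sp5 (-2.54), Axin2 (-1.52) and Lgr5 (-3.15) fell, while Wnt2, a ligand of early heart and lung mesoderm, rose by 1.66, Fzd1 by 2.10 and the antagonist Dkk2 by 4.95. Dkk2 was at 9.19, 8.50 and 7.76 at day 8, against 3.75, 3.51 and 3.35 at day 4. Of 30 BMP genes 6 rose and 14 fell, with the ligands Bmp2 and Bmp4 lower by 0.85 and 1.0, the target genes Msx2, Msx1 and Id1 by 4.84, 2.80 and 1.07, and Id2 and Id4 higher by 1.27 and 1.42. Of 30 FGF genes 5 rose and 12 fell, the ligands Fgf5, Fgf3, Fgf15 and Fgf8 most, by 3.99, 3.76, 2.48 and 2.40. As medians over probe sets the falls of Axin2, Lgr5 and Msx2 were -0.95, -1.96 and -2.55, all called. Of 23 Notch genes 6 rose and 8 fell, with Dlk1, a non-canonical ligand and imprinted gene, at 11.76, 12.38 and 11.61 at day 8, against 5.86, 5.80 and 5.47 at day 4, and the target genes Hes1 and Nrarp lower by 1.54 and 1.77.

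Hox genes rose more often than they fell. Called higher and lower were 46.2% and 23.1% of anterior and 50% and 5% of posterior members, beside 20.1% and 21% of all genes. Of 13 anterior members 6 rose and 3 fell, and the largest fall was Hoxb1 (2.70, 3.42 and 2.91 at day 8, against 6.39, 7.38 and 7.79 at day 4), an early Hox gene of streak and hindbrain. Of 20 posterior members 10 rose and Hoxb6 alone fell (-0.90, not called without day 4 array 5, at -0.50, or day 8 array 6, at -0.76, or in a fit of the 6 SCR arrays alone, adjusted p = 0.06). Hoxc8 was at 7.46, 6.98 and 6.97 against 3.39, 3.11 and 2.92, Hoxd10 rose by 3.34, Hoxa10 by 2.98 (1.76 as a median over its probe sets), Hoxd8 by 2.64 and Hoxd9 by 1.95. Genes of the nervous system did not rise as a group: of 34 measured, 5 rose (14.7%) and 8 fell (23.5%), with a median of -0.15. Pax6, Neurog1, Neurog2 and Olig2 were dim, with day 8 means of 4.35, 4.40, 3.48 and 2.46, and uncalled, except that Pax6 was called higher in a fit of the 6 SCR arrays alone (adjusted p = 0.049). The 5 that rose, Lhx2 (4.53), Gap43 (2.58), Ncam1 (2.0, or 1.16 as a median over its probe sets), Onecut2 (1.05) and Sox2, are also made in non-neural tissue. Of 13 neural crest genes 3 rose (23.1%) and 2 fell (15.4%), near the shares of all genes. Those that rose were Ednrb (10.52, 10.55 and 10.62 at day 8, against 4.43, 4.63 and 4.73 at day 4), Mitf (2.08, or 1.37 as a median over its probe sets) and Ets1 (1.21). Sox10, the defining factor of crest, was uncalled at 5.27, 5.55 and 5.48 and 5.55, 5.81 and 5.48. Trophoblast genes fell in 10 of 18 cases (55.6%). Krt7 alone was called higher, a call lost without day 8 array 4 (0.56) and without day 4 array 4 (0.54) or 6 (0.60). Phlda2, an imprinted placental gene, was at 6.90, 6.66 and 7.35 at day 8, against 11.91, 11.64 and 11.70 at day 4. Of 27 surface epithelium genes 8 were higher (29.6%) and 6 lower (22.2%). Without day 8 array 4 there were 4 higher and 9 lower, so the balance rests on that array.

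Cell division genes declined together by small amounts. Of 36 genes of DNA replication and mitosis 29 fell and none rose, with a median of -0.61. Mcm10 was at 7.78, 7.94 and 7.77 at day 8, against 9.11, 9.22 and 9.15 at day 4, and Cdc6, which loads the replicative helicase, at 8.56, 8.46 and 8.50 against 9.85, 9.93 and 9.69. Each difference was a little over 2-fold (-1.33 and -1.32), that of Mcm10 smaller as a median over its probe sets (-0.81). Ccna2 and Ccnb2 fell by 1.01 and 0.93, and Pcna by 0.64, whereas Mki67 did not pass the test (-0.11). In a mixed list of 15 G1 cyclins, CDK inhibitors and pocket proteins 9 rose (60%, beside 20.1% of all genes). The inhibitors Cdkn2b (1.79), Cdkn1a (1.41), Cdkn1c (1.40) and Cdkn2a (1.40) and the pocket protein Rbl2 (1.75) were among them. Cyclin D1 (Ccnd1) alone was called lower, by 1.07. Imprinted genes, many of which regulate fetal growth, rose in 13 of 24 cases and fell in 2, Phlda2 and Slc22a18, with Igf2r and Igf2 up by 2.49 and 1.95 and Plagl1 by 3.76 (0.90 as a median over its probe sets). The call of Slc22a18 (-0.26) was lost with cyclic loess scaling, with a trend in the spread, in a fit of the 6 SCR arrays alone and without each SCR array but day 8 array 5. Of 28 glycolysis and hypoxia genes 6 were higher (21.4%) and 5 lower (17.9%), shares near those of all genes (8 and 3 genes without day 8 array 4), with Hk1 up by 2.18 (1.36 as a median over its probe sets), P4ha2, a collagen prolyl hydroxylase subunit, by 1.94 and Ldha down by 0.99. Among 23 DNA methylation and Polycomb genes 5 rose (21.7%) and 8 fell (34.8%), beside 20.1% and 21% of all genes. Tet2 was up by 1.94 and Dnmt3b down as given above.

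Smaller lists were uneven, and their shares stand beside 20.1% of all genes called higher and 21% called lower. Retinoid pathway genes rose in 6 of 18 cases (33.3%) and fell in 3 (16.7%). The receptor Rarb was at 9.38, 9.05 and 9.11 at day 8, against 4.06, 4.67 and 5.28 at day 4. The synthetic enzyme Rdh10 rose by 1.82, and the binding protein Crabp1 fell by 3.01. Kidney and intermediate mesoderm genes rose in 5 of 14 cases (35.7%) and fell in 3 (21.4%), with Osr1 up by 2.75 and Sall1 down by 1.71. Cartilage and bone genes rose in 4 of 14 cases and fell in 4 (28.6% each way), not far from the shares of all genes. Germline genes rose in 1 of 24 cases (4.17%, Mov10l1, 1.57) and fell in 3 (12.5%), below the shares of all genes. Their falls were led by the synaptonemal complex gene Sycp3 (-3.47). Interferon-response and immediate early genes rose in 13 of 26 cases (50%) and fell in 4 (15.4%). Ifit1 was up by 3.27 and Ifitm1, also a marker of early mesoderm, down by 2.09. Of 21 genes of the STRIPAK complexes, the assemblies to which Strip2 belongs, 7 rose (33.3%) and 2 fell (9.52%). Most of these changes were below 1 log2 unit. The counts varied with the setting: 10 rose and 0 fell with cyclic loess scaling, and 3 rose and 1 fell in a fit of the 6 SCR arrays alone. Without day 8 array 4 there were 5 rises and 2 falls. Strip2 itself rose by 0.57 (adjusted p = 0.017) within the dim range, a call lost without day 8 array 4 (0.40).

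**Figure D2:**
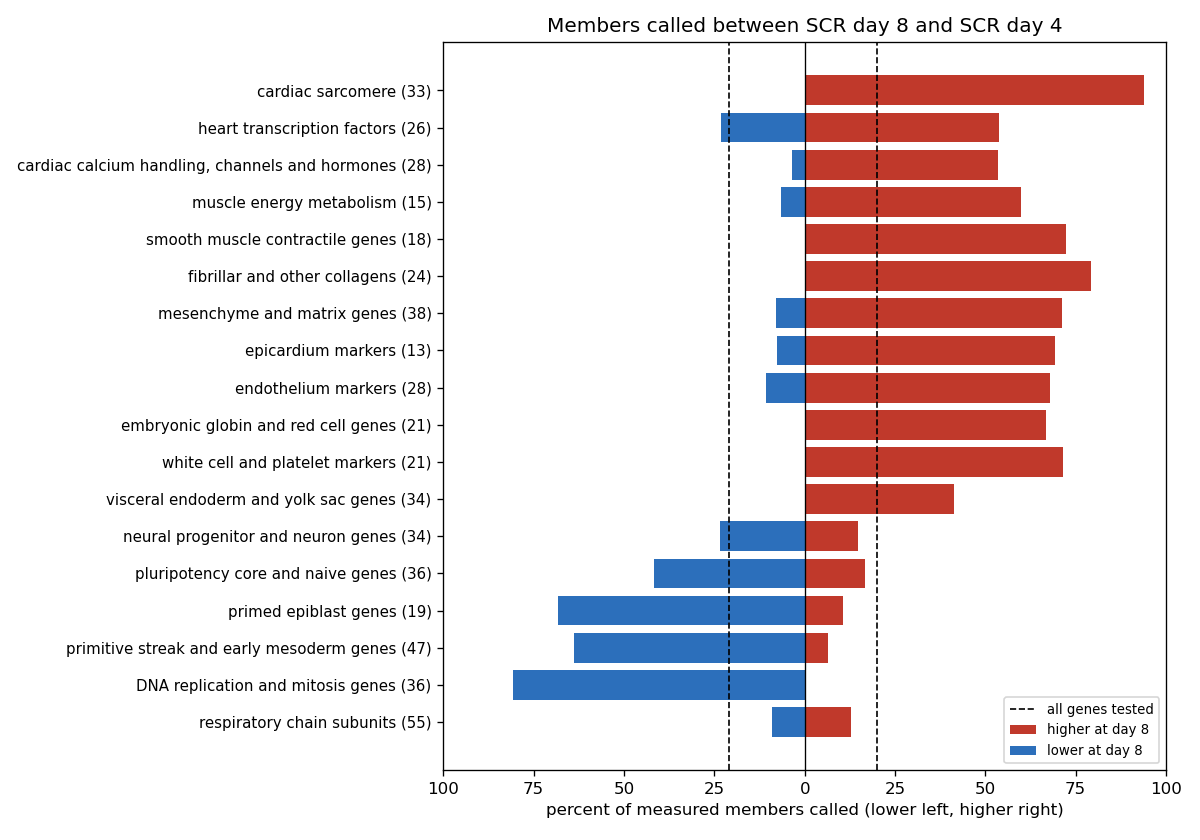
Percent of measured members of 18 gene lists called lower (left) or higher (right) at SCR day 8 against SCR day 4, at an adjusted p under 0.05; dashed lines mark the share of all 18193 genes, 20.1% higher and 21% lower. Sarcomere genes reach 93.9% higher, and replication and mitosis genes have no member higher.

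The same step was measured in the WT line on its own arrays, and most of it was shared. WT day 8 against WT day 4 gave 7982 called genes (43.9%), 3622 higher (19.9%) and 4360 lower (24%), of which 1458 rose (8.01%) and 728 fell (4%) by at least 2-fold. Rises of at least 2-fold were shared by 1104 genes, which is 79.4% of those in SCR and 75.7% of those in WT, and falls of that size by 456 genes, 71.9% of those in SCR and 62.6% of those in WT. Of the 1390 SCR rises 2 were called lower in WT. Across the 18193 genes the 2 sets of differences correlated at 0.903, which describes these libraries only, since genes are not independent. All 20 of the largest SCR rises were called higher in WT and all 20 of the largest SCR falls were called lower in WT.

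The difference between the 2 lines' steps was tested as an interaction, SCR step minus WT step, which shares no array between its parts. It was called for 328 genes (1.8%), 196 with a more positive step in SCR (1.08%) and 132 with a more negative one (0.726%). Heart muscle genes supplied the top of the list. Of 33 sarcomere genes 22 had a larger step in SCR and none a smaller one, and the median over the list was 2.25, beside 0.02 over all genes. Myl2 was at 11.32, 12.64 and 12.40 on the SCR day 8 arrays and 6.86, 5.53 and 8.03 on the WT day 8 arrays, and its step was larger in SCR by 5.74 (SE 0.70, adjusted p = 7.8e-06). Myh6 was at 5.70, 5.01 and 7.62 on the WT day 8 arrays and 3.13, 3.41 and 3.19 on the WT day 4 arrays, a WT step of 2.87 against 8.08 in SCR, and the interaction was 5.21 (adjusted p = 0.00016). Myl7 was not higher at WT day 8 (8.17, 6.78 and 9.23) than at WT day 4 (7.97, 8.67 and 9.03), so its interaction of 4.80 exceeded its SCR step. Tnni3, Ttn, Actc1, Myl4 and Smpx followed with interactions of 4.22, 4.02, 3.86, 3.66 and 3.29. Sphkap, an anchoring protein for protein kinase A, and Tecrl, an enzyme-like protein of heart muscle, completed the 10 largest, at 3.59 and 3.40. Not every sarcomere gene differed: Cryab rose by 4.87 in SCR and 5.10 in WT (interaction -0.23, adjusted p = 0.93), and Ankrd1 by 2.47 and 1.75. In WT 18 of the 33 members were called higher and 1 lower, so WT bodies gained sarcomere RNA as well, with list means of 6.11, 5.83 and 6.47 at day 8, against 5.13, 5.09 and 5.08 at day 4.

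Heart transcription factors differed between the lines as well. Of 26 heart factors 12 had a more positive step in SCR than in WT and none a more negative one. Myocd was at 5.66, 5.35 and 5.44 at WT day 8 and 5.91, 5.82 and 5.24 at WT day 4, an interaction of 2.32 (adjusted p = 0.00067). Shox2 and Hopx, which rose in SCR, had WT steps of -0.01 and 0.02, and Tbx18, Tbx5, Gata5, Mef2c and Nkx2-5 had interactions of 1.78, 1.29, 1.56, 1.37 and 1.30. For Isl1, Hey1 and Tbx2 the interaction came from a fall in WT (-1.62, -1.99 and -2.16) that was smaller or not called in SCR (0.18, -0.34 and -0.62). Gata6, Hand2, Zfpm2, Mef2a and Irx3 rose in both lines with no called difference. Of the calcium genes 8 of 28 had a larger step in SCR, led by Slc8a1 (3.0) and Pln (2.79), a count of 13 without SCR day 8 array 4, 3 without array 5 and 5 without array 6. Of the energy genes 5 of 15 did, led by Pgam2 (3.15) and Ppargc1a (3.10), a count of 8 without array 4 and 4 without array 5 or 6. Among BMP target genes, Id1 and Id3 fell by 2.36 and 2.09 in WT and by 1.07 and 0.83 in SCR, where Id3 was not called without day 8 array 4 (-0.53), and Bmper, a secreted BMP modulator, had an interaction of 1.78. Further genes with a more positive SCR step were the Notch ligand Jag1 (1.70), Mitf (1.91), the intermediate mesoderm factor Osr1 (1.55) and Tcf21 (1.35).

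On the other side stood visceral endoderm genes, 6 of 34 of which had a smaller step in SCR and none a larger one. Ttr was at 11.67, 10.14 and 9.91 on the SCR day 8 arrays and 12.86, 12.70 and 12.82 on the WT day 8 arrays, and its step was smaller in SCR by 2.94 (SE 0.55, adjusted p = 0.0015). Lgals2, Apom, Hpx, Fgb and Rbp4 had interactions of -2.54, -2.41, -2.02, -1.82 and -1.44. The other most negative interactions were those of Car3, a carbonic anhydrase (-3.24), the imprinted factor Plagl1 (-3.05), the trefoil peptide Tff3 (-2.52), the metallothioneins Mt2 and Mt1 (-2.42 and -2.22), Fam183b (-2.41) and the folate receptor Folr1 (-2.04). Plagl1 rose in both lines, by 3.76 in SCR and 6.81 in WT, and as a median over its probe sets its interaction was -0.66 and not called. As medians over probe sets the interactions of Ttn, Myl4, Sphkap and Car3 were 2.15, 2.10, 2.14 and -1.44, all called. Matrix genes Postn, Dcn and Col5a2 also rose less in SCR, with interactions of -2.02, -1.43 and -1.11, and the interactions of Hoxc8 and Hoxb6 were -1.81 and -1.84. The red cell, white cell, endothelial, neural progenitor and neuron, primed epiblast and replication lists held no gene whose step was called different between SCR and WT. Without SCR day 8 array 4 the first 3 of these lists held 1 such gene each and the replication list 2. With a replicate block the red cell and endothelial lists held 1 each. Other settings also gave single genes. Cyclic loess scaling gave 1 each in the red cell and replication lists, and a trend in the spread gave 1 in the replication list. The median of probe sets gave 1 endothelial gene, and leaving out SCR day 8 array 6 gave 1 white cell gene.

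These interactions depend on which SCR day 8 array is kept. Array 4 was the lowest SCR day 8 array in 175 of the 196 genes with a larger SCR step and the highest in 106 of the 132 with a smaller one. Without array 4 the number of called interactions was 720, without array 5 it was 160 and without array 6 it was 180. Of the 50 genes named here with a called interaction against WT, 12 lost the call in at least 1 fit that left out an SCR or a WT array: Bmper, Col5a2, Fgb, Gata5, Hoxb6, Hpx, Id3, Mef2c, Nkx2-5, Rbp4, Shox2 and Tcf21, of which Shox2 and Tcf21 also lost it as a median over probe sets (1.57 and 0.89). The sarcomere genes with a larger step numbered 26 without array 4, 18 without array 5 and 19 without array 6, and the visceral endoderm genes with a smaller step numbered 10, 3 and 3. Even so, each SCR day 8 array had a higher sarcomere mean (7.57 or more) than any WT day 8 array (6.47 or less). The visceral endoderm mean of every SCR day 8 array (5.72 to 6.41) was below that of every WT day 8 array (6.83 to 6.93), while at day 4 both lines lay together, at 4.97 to 5.16 in SCR and 5.07 to 5.30 in WT.

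**Figure D3:**
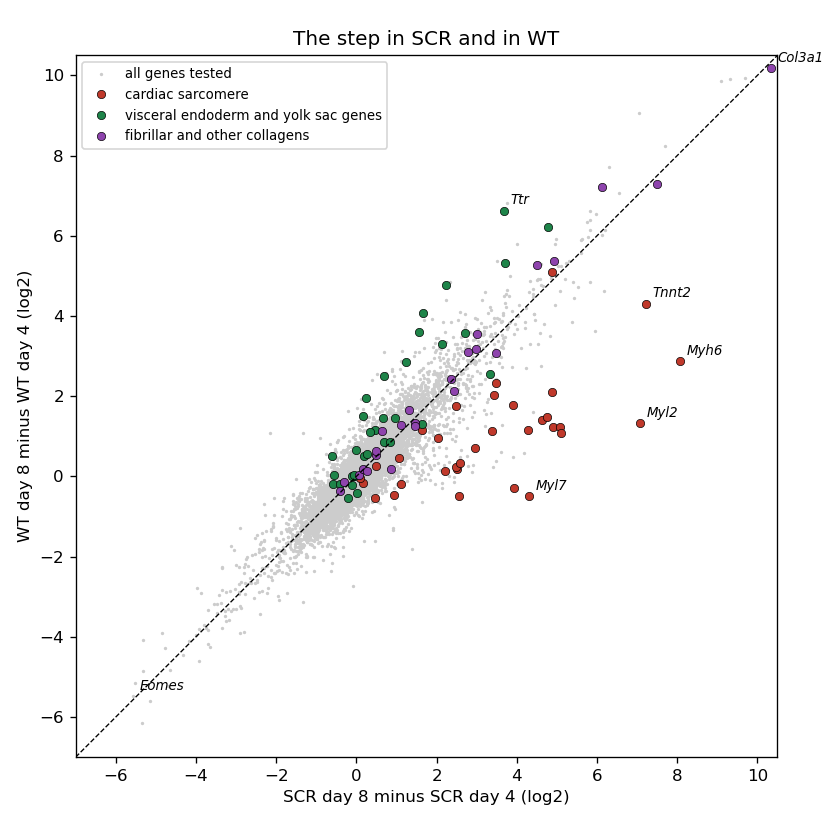
Day 8 minus day 4 in SCR (x axis, log2) against the same difference in WT (y axis, log2) for 18193 genes, with sarcomere genes in red, visceral endoderm genes in green and collagens in purple; the dashed line marks equal steps. Most genes lie along the line (r = 0.903 across genes), with sarcomere genes such as Myh6 and Myl2 below it and Ttr above it.

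**Figure D4:**
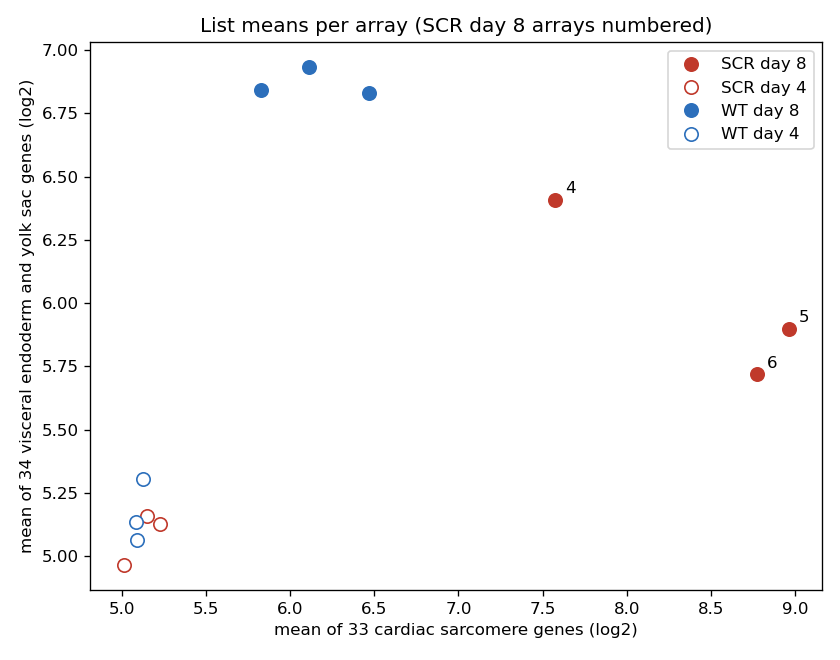
Mean log2 signal of 33 sarcomere genes (x axis) against that of 34 visceral endoderm genes (y axis) on each array of SCR and WT at day 8 and day 4. The day 4 arrays of both lines lie together, and among the SCR day 8 arrays the array with the lowest sarcomere mean (7.57) has the highest visceral endoderm mean (6.41).

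The KD-labelled line took a different course over the same days. Its day 8 arrays against its day 4 arrays gave 2348 called genes (12.9%), 1306 higher (7.18%) and 1042 lower (5.73%), with 352 rises (1.93%) and 84 falls (0.462%) of at least 2-fold. SCR and KD-labelled rises of that size shared 125 genes, 8.99% of those in SCR and 35.5% of those in KD-labelled bodies, and falls shared 17 genes, 2.68% and 20.2%. The differences of the 2 steps correlated at 0.2 across genes, as a description of these libraries. SCR step minus KD-labelled step was called for 4763 genes (26.2%), 2429 higher (13.4%) and 2334 lower (12.8%). Col3a1, Lum, Hbb-y, Hbb-bh1 and Myh6 had the most positive interactions, 10.15, 9.66, 9.65, 9.40 and 8.81, and none of the 5 was called higher in the KD-labelled line. Myh6 was at 5.31, 5.55 and 5.40 on the KD-labelled day 8 arrays and 6.33, 6.40 and 5.71 on its day 4 arrays. The most negative interactions were those of Eomes (-6.68), Cyp26a1 (-6.31), Lhx1 (-6.17), Msx2 (-5.83) and Tdgf1 (-5.42). Eomes in KD-labelled bodies was at 8.17, 7.94 and 8.05 at day 8 and 6.97, 6.59 and 7.30 at day 4, so it rose there by 1.10 while it fell in SCR. Of the 47 streak genes 12 were called higher and none lower in that line, and of 33 sarcomere genes 2 were called higher. Parietal endoderm genes were called higher in 10 of 13 cases in SCR and in 11 of 13 in KD-labelled bodies, and SCR step minus KD-labelled step was called for 7 of them, negative in 6 and positive in 1, with a median of -0.50 over the list. The KD-labelled day 8 bodies kept pluripotency gene means of 10.08 to 10.19, against 5.63 to 5.92 in SCR. Strip2 was at the dim end of the scale on the day 8 arrays of every line, so its readings cannot show whether it was silenced. The labelled silencing cannot be told apart from other differences of that line.

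Over the whole course, Myh6, Myl2 and Col3a1 moved most in SCR between day 4 and day 8. The means of Myh6 in SCR at the ESC stage and at days 4, 8, 12 and 16 were 6.13, 3.24, 11.32, 11.97 and 12.08, and those of Myl2 were 4.25, 5.05, 12.12, 12.77 and 12.85. Both stayed near their day 8 level afterwards, as did Col3a1, with 4.04, 3.76, 14.08, 14.02 and 13.96. Hbb-y peaked at day 8 and declined again, with means of 3.84, 3.72, 13.42, 10.08 and 4.32, and Eomes peaked at day 4, with 6.58, 10.82, 5.24, 5.67 and 5.45. Nkx2-5 was highest at day 8, at 5.17, 5.25, 6.32, 5.96 and 5.46, a mean that rests on arrays 5 and 6 and has a spread of 1.02 at day 8 (SD, n = 3). Ttr rose on through day 16, with means of 3.25, 6.90, 10.57, 11.83 and 13.64. Sarcomere list means in SCR were 8.36 to 8.93 at day 12 and 8.42 to 9.39 at day 16, against 7.57 to 8.96 at day 8, so the day 8 arrays already overlapped the later ones. In WT the same list reached 6.12 to 7.24 at day 12 and 6.13 to 6.91 at day 16, below every SCR array of days 8 to 16.

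**Figure D5:**
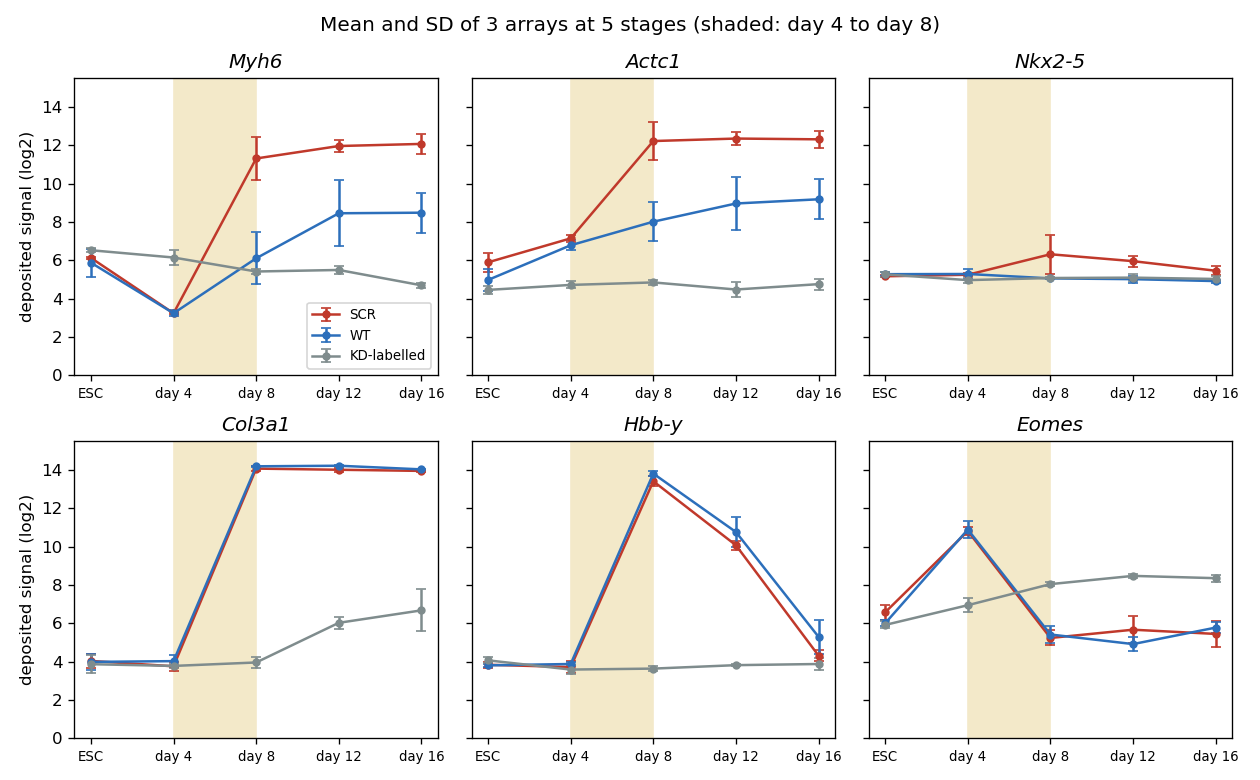
Mean log2 signal (y axis, ± SD of 3 arrays) of Myh6, Actc1, Nkx2-5, Col3a1, Hbb-y and Eomes at the ESC stage and at EB days 4, 8, 12 and 16 (x axis) in the SCR, WT and KD-labelled lines, with the interval from day 4 to day 8 shaded. Myh6 in SCR is at 11.32 at day 8 and 3.24 at day 4, while the WT means are 6.11 and 3.24.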

How the data were processed

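Total RNA of whole EBs was hybridised to Affymetrix mouse 3' arrays, per the labels' protocols. The values used are the log2 signals of 45037 probe sets that the authors deposited, rounded to 2 decimals. Affymetrix Expression Console, Partek 6.6 and RMA are named in the submitters' processing notes, with no role or order, and their part in making the values is not given in the sources used here. All 45 arrays of the series were used and none was dropped. Samples were grouped by title, and array 4 of SCR day 8 was kept with its title against its cell type tag. No further normalization and no filter on level was applied.

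Of the probe sets, 34945 carried 1 gene symbol in the platform annotation, 932 several and 9160 no listed gene, and the last 2 kinds were left out. The brightest probe set over all arrays stood for a gene, and 9010 of the 18193 genes had more than 1. Among 946 genes of the lists and of the text, 4 had a further probe set called the other way (Fbln1, Spred2, Tnni2 and Tpm1), and 48 that were not called were called at another probe set. Names, chromosomes and promoter sequences came from RefSeq (GRCm38.p6). Of the 1095 list entries 1028 matched a measured gene.

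A mean for each of the 15 groups was fitted to all arrays with limma 3.58.1 (R 4.3.3), with 30 residual and 5.17 prior degrees of freedom. Tests were SCR day 8 minus day 4, the same step in WT and KD-labelled, and the differences between steps. Calls have an adjusted p under 0.05 (Benjamini-Hochberg, all genes), SEs are limma's and SDs are over 3 arrays; the number of arrays limits the precision. On simulated data with the design of SCR day 8 against day 4 and 18193 genes, 72% of 50 genes changed by 1.5-fold were recovered, 90% at 2-fold, 98% at 4-fold and 100% at 8-fold, with 12 false calls. The simulation drew normal noise with the same SD of a gene in every group and changed only the planted genes. In the data 7483 genes were called and the spread differed between groups, so these rates need not hold for the step. Deviations from the group mean correlated at -0.04, 0.25 and 0.18 between same-numbered arrays of day 4 and day 8 (numbers 4, 5 and 6). Between differently numbered arrays the correlations ran from -0.27 to 0.13. Whether the numbers pair the arrays is not settled by these values, and the main fit did not pair them.

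The gene lists and the members were chosen with earlier results of these data known, and the spelling of a list entry (Cttnbp2) was corrected later. Named genes are the 20 largest rises and 20 largest falls with separate arrays, members of the lists (up to 6 called ones with the largest differences, and others with their values), and the largest differences between steps (10 each way against WT, 5 each way against KD-labelled); clone and locus symbols were not named. Alternatives tried were centring on the median, cyclic loess, only genes above the median level, the median of probe sets, all probe sets, a trend in the spread, only the 6 SCR arrays, a replicate block and each array left out. Figures and tables used Python 3.11.15 with pandas 2.3.3 and matplotlib 3.10.9.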

Additional observations from a re-analysis of the deposited data

Results flagged for a closer look

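The step from day 4 to day 8 differed between SCR and WT in 328 genes and between SCR and KD-labelled bodies in 4763 genes, by a test of the difference itself (limma, adjusted p under 0.05). Against WT the most positive differences of the SCR step were 5.74 in Myl2, 5.21 in Myh6, 4.80 in Myl7, 4.22 in Tnni3, 4.02 in Ttn, 3.86 in Actc1, 3.66 in Myl4, 3.59 in Sphkap, 3.40 in Tecrl and 3.29 in Smpx. The most negative were -3.24 in Car3, -3.05 in Plagl1, -2.94 in Ttr, -2.54 in Lgals2, -2.52 in Tff3, -2.42 in Mt2, -2.41 in Fam183b, -2.41 in Apom, -2.22 in Mt1 and -2.04 in Folr1. Against KD-labelled bodies the most positive were 10.15 in Col3a1, 9.66 in Lum, 9.65 in Hbb-y, 9.40 in Hbb-bh1 and 8.81 in Myh6, and the most negative -6.68 in Eomes, -6.31 in Cyp26a1, -6.17 in Lhx1, -5.83 in Msx2 and -5.42 in Tdgf1. These genes were picked as the largest differences among called genes, so that each is called follows from the choice. As a median over its probe sets the difference of Plagl1 from WT was -0.66 and not called.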

How the results depend on the processing

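The counts of called genes were 7483 for the SCR step, 2024 at 2-fold or more, 328 for the difference from WT and 4763 for that from KD-labelled bodies. Leaving out each array gave 6541 to 7080, 1995 to 2122, 160 to 720 and 4193 to 4615; the count against WT was 720 without SCR day 8 array 4, 160 without array 5 and 180 without array 6, and the cause was not tested. With only genes above the median level, so fewer genes tested, 1217 were called at 2-fold or more and 172 differed from WT. With every probe set tested on its own, 12584 probe sets were called and 3340 at 2-fold or more. Cyclic loess gave 7201 called genes, 60.9% of them higher. Whether same-numbered arrays are paired is not settled. With a replicate block the counts were 7599, 2024, 373 and 4902, and without the other lines the block gave 6718 and 2024. The other alternatives stayed within 1.5 times. List medians changed sign in anterior Hox (-0.22) and kidney genes (-0.59) with only genes above the median level, and in DNA methylation and Polycomb genes with that filter (-0.09), with the median of probe sets (-0.048) and without SCR day 8 array 5 (-0.095; 0.073 without array 4); the cause was not tested. By the median of probe sets Tfcp2l1 differed by -0.11 and Tpm1 by -0.71. Over genes of the rule and all settings, 3247 values kept direction and call, 31 lost the call and 5 gained one. Most genes of the rule were picked as large called differences, and several settings refit the same values, so kept calls partly follow from the choice. For other genes of the text the counts were 1484, 54 and 11. Dim probe sets limit small changes.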
